A study of Homo sapiens with 2 samples.

Results

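The RUNX transcription factors bind DNA through a Runt domain and work as heterodimers with CBFβ, a partner that does not touch DNA itself but raises the affinity of the RUNX subunit. RUNX1 is best known for blood cell formation, RUNX2 for bone and cartilage, and RUNX3 for T cells, sensory neurons and some epithelia. Each RUNX gene is transcribed from a distal promoter (P1) and a proximal promoter (P2), and the proteins made from P1 and P2 differ at their N-terminus, whereas CBFB, which encodes CBFβ, has a single main promoter. The accessible chromatin of these 4 genes, RUNX1, RUNX2, RUNX3 and CBFB, out of 20033 protein-coding genes in GENCODE 44, is described here with 100 kb on either side of each gene and with P1 and P2 kept apart.

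Chromatin accessibility was measured by ATAC-seq, in which Tn5 transposase inserts sequencing adapters into open DNA. The samples were 2 replicates of wild-type BEAS-2B (B2B), an immortalized human bronchial epithelial cell line, with no treatment given in the labels. Each replicate came with its own list of peaks called by MACS2, and the 1 condition leaves no comparison between groups. The study's methods speak of biological replicates, but the labels do not say whether these were separate cultures, so the spread between them may be technical.

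On chromosomes 1 to 22, X and Y the lists held 28735 peaks in replicate 1 and 36162 in replicate 2. Each peak carries a fold enrichment, the height of the read pileup at its summit over the local background, each raised by 1. Read totals were not analysed here, but fold and p-value together give back the pileup itself, which came out as a whole number (to 0.01 in −log10 p) for 99.9% of the peaks of each list. The lowest pileup that was called was 16 in replicate 1 and 13 in replicate 2, both at the commonest background of each list, so a site with no peak may still hold reads below about these heights. Overlapping peaks were joined into 37661 regions, and 67.4% of all regions held a peak of each replicate. Regions of 1 replicate alone numbered 2205 for replicate 1 and 10090 for replicate 2, the longer list.

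Of the 7 promoters of the family, 3 had a peak within 1 kb of the transcription start site (TSS) in both replicates and 4 had none in either. The open promoters were RUNX1 P2, RUNX2 P2 and the CBFB promoter, and the closed ones were P1 of RUNX1, RUNX2 and RUNX3 together with RUNX3 P2. No promoter was called in 1 replicate alone. For reference, 52.2% of the 20033 protein-coding promoters held a peak in both replicates. That share takes 1 main start per gene, whereas the 7 include both promoters of each RUNX gene.

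The 150 bases just upstream of the first annotated transcript start at each promoter are printed here in hg38, 5′ to 3′ on the strand of the gene, because they show how unlike P1 and P2 are in base composition. Capitals mark 3 short motifs, each searched on both strands. The RUNX motif is TGTGGT, which appears as ACCACA when it lies on the opposite strand, or its variant TGCGGT. The AP-1 motif is TGACTCA, which appears as TGAGTCA on the opposite strand. The TEAD motif is GGAATG, which appears as CATTCC on the opposite strand. The windows, in order, are chr21:35049345-35049494 (minus strand), chr21:34888691-34888840 (minus), chr6:45328007-45328156 (plus), chr6:45421886-45422035 (plus), chr1:24965122-24965271 (minus), chr1:24930277-24930426 (minus) and chr16:67028834-67028983 (plus).
RUNX1 P1: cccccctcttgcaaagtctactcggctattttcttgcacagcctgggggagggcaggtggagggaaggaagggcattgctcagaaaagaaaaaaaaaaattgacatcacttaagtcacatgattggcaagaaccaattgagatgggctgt
RUNX1 P2: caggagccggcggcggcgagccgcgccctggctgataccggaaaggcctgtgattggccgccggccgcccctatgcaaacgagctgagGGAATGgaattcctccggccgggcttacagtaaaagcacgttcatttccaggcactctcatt
RUNX2 P1: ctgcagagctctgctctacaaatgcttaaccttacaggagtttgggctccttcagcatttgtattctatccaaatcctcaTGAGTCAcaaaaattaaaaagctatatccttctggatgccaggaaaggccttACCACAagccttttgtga
RUNX2 P2: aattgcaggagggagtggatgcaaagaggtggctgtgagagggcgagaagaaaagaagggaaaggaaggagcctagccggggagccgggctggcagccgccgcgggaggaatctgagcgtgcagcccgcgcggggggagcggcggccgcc
RUNX3 P1: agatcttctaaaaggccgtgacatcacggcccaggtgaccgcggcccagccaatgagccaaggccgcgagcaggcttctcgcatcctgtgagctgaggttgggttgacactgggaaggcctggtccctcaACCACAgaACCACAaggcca
RUNX3 P2: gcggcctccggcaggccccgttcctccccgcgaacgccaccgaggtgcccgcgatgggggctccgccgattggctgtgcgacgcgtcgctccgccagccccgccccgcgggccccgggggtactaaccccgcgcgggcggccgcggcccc
CBFB: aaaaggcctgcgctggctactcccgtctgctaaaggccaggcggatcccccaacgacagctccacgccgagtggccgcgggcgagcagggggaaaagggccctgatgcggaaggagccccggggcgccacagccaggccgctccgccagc

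The RUNX1 P1 window held 1 CpG in 150 bases and the RUNX2 P1 window 0, against 14 and 13 in the P2 windows of the same genes. RUNX3 P1 held 7 and RUNX3 P2 26, and the CBFB window held 14. A RUNX motif lay in the windows of RUNX2 P1 and RUNX3 P1 and in none of the P2 windows, and RUNX2 P1 also carried an AP-1 motif (TGAGTCA). RUNX1 P2 held a TEAD motif. Over 35116 RefSeq promoters 19.6% held the RUNX motif, 14.0% the TEAD motif and 4.95% the AP-1 motif. Those windows were wider, with 300 bp from 250 bp before to 50 bp after the start. In the same 300 bp around the family's starts, the RUNX motif stood at P1 of RUNX1, RUNX2 and RUNX3. The AP-1 motif stood at P1 of RUNX1 and RUNX2, and the TEAD motif at RUNX1 P2 and RUNX3 P1. RUNX2 P2, RUNX3 P2 and CBFB held none of the 3 motifs there.

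RUNX1 encodes a master regulator of blood stem cells, and its proximal promoter had the closest fold enrichments between replicates of the open ones. At RUNX1 P2 (TSS chr21:34888690, minus strand) replicate 1 had a peak of 353 bp at chr21:34888583-34888935, enriched 5.54-fold from a pileup of 31, and its −log10 q was 12.8. Replicate 2 had a peak of 423 bp at chr21:34888578-34889000, enriched 5.80-fold from a pileup of 32, and its −log10 q was 13.9. The background was 4.77 in replicate 1 and 4.69 in replicate 2, where it stood above the commonest background of that list, 3.41. The mean fold enrichment was 5.67 ± 0.183 (SD, n = 2), and the summits lay 128 bp upstream and 4 bp downstream of the TSS. Both peaks therefore covered the start itself. Ranked among the 10461 protein-coding genes with a peak in both replicates at their main start, whose median was 8.92, this mean stood above 14.4%.

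A further region in both replicates lay just behind RUNX1 P2, at chr21:34890022-34890283, with fold enrichments of 3.98 in replicate 1 and 5.82 in replicate 2. Its summit was 1.48 kb upstream of the P2 start, inside intron 3 of the MANE transcript, the reference transcript that runs from P1. The summit also lay 0.384 kb upstream of the start of an incompletely annotated RUNX1 transcript. Between this region and P2 replicate 2 alone had a weak peak at chr21:34889762-34889917, with a fold enrichment of 3.53, which overlaps the first exon of that incomplete transcript.

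RUNX1 P1 (TSS chr21:35049302, minus strand) had no peak within 1 kb in either replicate. Replicate 2 had a peak on each side of it, at chr21:35047092-35047237 with a fold enrichment of 4.08 and at chr21:35051405-35051685 with 4.53, whose summits were 2.1 kb downstream and 2.15 kb upstream of the start. Replicate 1 had its nearest peak 159 kb away, beside P2. The P1 call thus stood at 0 of 2 replicates within 1 kb and at 1 of 2 within 3 kb.

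RUNX2, the regulator of osteoblast formation, had the same arrangement with a wider gap between the fold enrichments of the replicates. At RUNX2 P2 (TSS chr6:45422485, plus strand) replicate 1 had a peak of 535 bp at chr6:45421763-45422297 with a fold enrichment of 5.54, and replicate 2 a peak of 443 bp at chr6:45421797-45422239 with 7.25. The pileup was 31 in both, over a background of 4.77 in replicate 1 and 3.41 in replicate 2, so the fold enrichments differed through the background term alone. The mean was 6.40 ± 1.21 (SD, n = 2), above 22.9% of the promoters open in both replicates.

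The 2 peaks of RUNX2 P2 ended before the start of its complete coding transcripts: the summits lay 460 bp and 401 bp upstream. They coincided instead with the starts of 2 other P2 transcripts, at positions 45422036 and 45422099, which are annotated as targets of nonsense-mediated decay; the summits were at 45422025 and 45422084. A weaker region in both replicates lay 2.81 kb upstream of P2, at chr6:45419612-45419863, with fold enrichments of 4.68 and 4.30.

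At RUNX2 P1 (TSS chr6:45328330, plus strand) no peak was called in either replicate, and none lay nearer than 49.02 kb in replicate 1 and 49.05 kb in replicate 2. That nearest peak belongs to another gene, SUPT3H, described with the locus.

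RUNX3 was closed at both promoters. Neither replicate had a peak within 1 kb of P1 (TSS chr1:24965010, minus strand) or of P2 (TSS chr1:24930276), and none was called anywhere in the 65.6 kb gene. The nearest peak to P1 was 57.4 kb upstream in both replicates, and the nearest to P2 was 81.9 kb downstream in both. A window of 3 kb and the use of every annotated start gave the same result.

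The CBFB promoter (TSS chr16:67029149, plus strand) was open in both replicates. Replicate 1 had a peak of 170 bp at chr16:67028913-67029082 with a fold enrichment of 4.50 from a pileup of 25, and replicate 2 a peak of 366 bp at chr16:67028882-67029247 with 7.25 from a pileup of 31. The mean was 5.88 ± 1.94 (SD, n = 2), above 16.8% of open promoters. Replicate 2 was higher, and its peak was the only one of the pair to cover the TSS.

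The 3 open promoters could not be ordered. Their means of 5.67, 5.88 and 6.40 lay within the spread of the replicates of RUNX2 P2 and CBFB, and in replicate 1 RUNX1 P2 and RUNX2 P2 had the same value of 5.54, while in replicate 2 RUNX2 P2 and CBFB had the same value of 7.25. Such equal values arise because the pileups are small whole numbers over one common background.

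**Figure D1:**
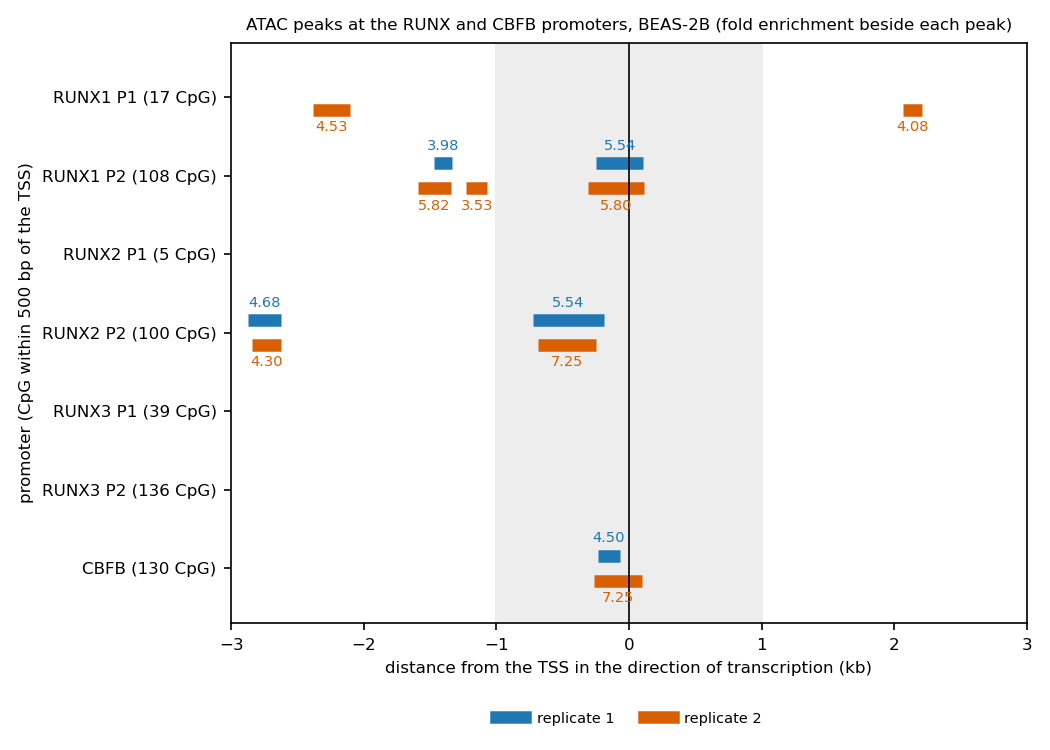
Peaks of replicate 1 (blue) and replicate 2 (orange) within 3 kb of the TSS of each of the 7 promoters, with the fold enrichment printed at each peak; the x axis is the distance from the TSS in kb in the direction of transcription and the grey band marks 1 kb on either side. RUNX1 P2, RUNX2 P2 and CBFB have a peak of each replicate in the band, and the 3 P1 promoters and RUNX3 P2 have none.

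The open and the closed promoters differed in CpG content, with RUNX3 P2 as the exception. Within 500 bp of the TSS the P1 promoters of RUNX1, RUNX2 and RUNX3 held 17, 5 and 39 CpG, fewer than the median of 66 over all protein-coding promoters, and the open RUNX1 P2, RUNX2 P2 and CBFB promoters held 108, 100 and 130. RUNX3 P2 held 136, the most of the 7 and more than 97.4% of all promoters, and was closed. When all promoters were split into 4 equal groups by CpG, 74.3% of the richest group (92 to 207) had a peak in both replicates, compared with 5.85% of the poorest (0 to 30).

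The state of the pair was also set beside other genes with a distal and a proximal promoter. Among 2290 protein-coding genes whose complete transcripts start at least 20 kb apart, 43.3% had a peak in both replicates at the most upstream start only, 8.78% at the most downstream start only, 8.52% at both and 39.4% at neither. RUNX2 was 1 of the 201 genes open at the downstream start only, and RUNX3 was among the 903 open at neither. RUNX1 counted as open at neither by this rule, because its most downstream start is that of a single P2 transcript at position 34887183 rather than the main P2 start. With its P2 as defined above it would be open at the proximal promoter only.

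The distal promoters shared a sequence feature that was noticed after their sequences were read. A pair of AACCACA words with starts 8 bp apart stood in the 300 bp from 250 bp before to 50 bp after the start at RUNX1 P1 (positions 21 and 29 past the TSS), at RUNX2 P1 (15 and 23 past it) and at RUNX3 P1 (132 and 124 before it). AACCACA contains the RUNX motif read on the other strand. The RUNX3 pair is the run of 2 capitalised words near the end of the RUNX3 P1 window, and the RUNX1 and RUNX2 pairs lie downstream of the start. Among 35116 RefSeq promoters (hg38) of the same 300 bp, 4.27% held AACCACA or its reverse complement at least once and 2 held the pair at this spacing, namely RUNX2 and RUNX3. That table holds 1 RUNX1 promoter, which is P2, so the RUNX1 P1 window was read from the genome and is not in the count. No P2 window and no CBFB window held AACCACA. The letters were found at closed promoters, and nothing in the peak lists bears on whether a factor was bound there.

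With promoters included, the 4 loci held 45 regions, of which 21 (46.7%) had a peak of each replicate, below the 67.4% of all regions. The other 24 were all called in replicate 2 alone and none in replicate 1 alone. The single-replicate regions were weak, with a median fold enrichment of 4.76 and a range from 3.53 to 7.25, while the means of the shared regions ran from 4.23 to 17.6 with a median of 5.88. Fold enrichment was higher in replicate 2 in 18 of the 21 shared regions, as it was in 74.7% of all shared regions. Among the shared regions 3 lay at the family's own promoters, 6 at promoters of neighbouring genes, 11 were distal, meaning over 1 kb from every protein-coding TSS, and 1 was the region behind RUNX1 P2.

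**Figure D2:**
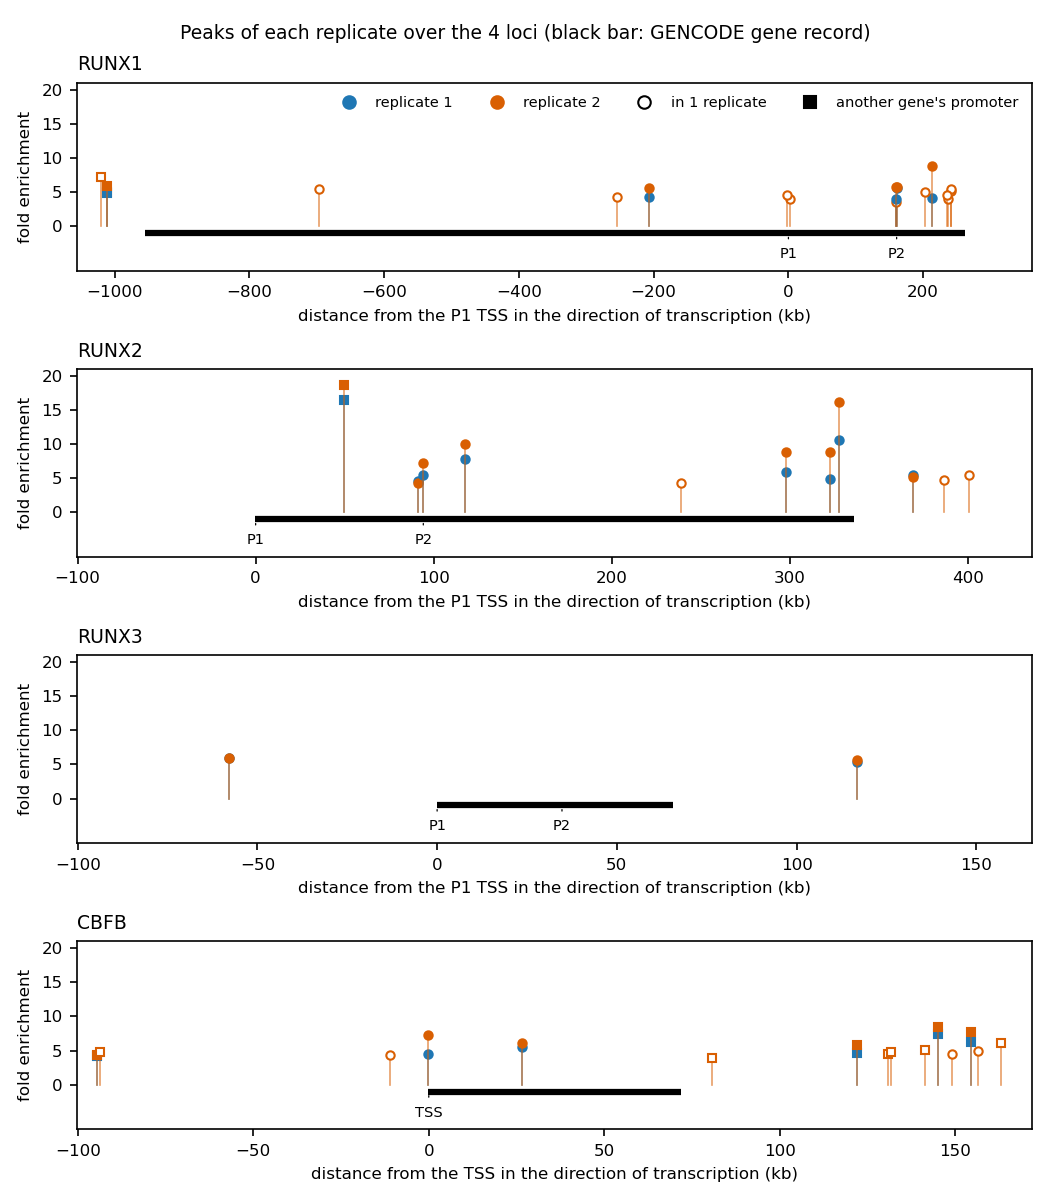
Fold enrichment (y axis) of each peak against its distance in kb from the P1 TSS, or from the CBFB TSS, in the direction of transcription, for replicate 1 (blue) and replicate 2 (orange); open symbols are regions called in 1 replicate and squares lie at promoters of other genes. The RUNX3 gene (black bar) is empty, and the RUNX2 locus holds the 2 strongest regions, at means of 17.6 and 13.4.

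The RUNX2 locus had the most shared regions of the 4, with 8 of 11 regions found in both replicates over 536 kb. This is 1.49 per 100 kb, above 53.1% of all protein-coding loci, and its density of distal regions, 1.12 per 100 kb, was above 81.7%. Of the 8 shared regions 5 were intronic.

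The strongest intronic region of RUNX2, at chr6:45655782-45656363, had fold enrichments of 10.6 in replicate 1 and 16.2 in replicate 2 from pileups of 60 and 78. Its mean of 13.4 ± 4.0 (SD, n = 2) was above 89.8% of all regions found in both replicates. It lay 234 kb past P2 and 105 kb past the end of the MANE transcript at position 45551082, and it is intronic only because a longer RUNX2 transcript runs on to position 45664349. The regions at chr6:45626131-45626787 (5.89 and 8.84) and chr6:45650586-45650920 (4.85 and 8.84) lay in the same stretch.

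On the downstream side of P2, 23.5 kb past it and in intron 5 of the MANE transcript, the region chr6:45445791-45446193 had fold enrichments of 7.80 and 9.97, a mean of 8.88 ± 1.54. The 94.2 kb between P1 and P2 held 3 shared regions, those of SUPT3H, of the weak site at 45419612 and of P2 itself. In the flanks a shared region at chr6:45697709-45697919 had fold enrichments of 5.54 and 5.21, and the 100 kb upstream of the gene held no region.

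The sequences 60 bp to either side of the summits are shown for the 2 distal regions of RUNX2 with the highest mean fold enrichment and for the highest one of each other locus. All are hg38, 5′ to 3′ on the strand of the gene, with the same motifs in capitals. The windows are chr6:45655940-45656060 and chr6:45445934-45446054 (plus strand), chr21:34836278-34836398 (minus), chr1:25022948-25023068 (minus) and chr16:67055797-67055917 (plus).
RUNX2 past the MANE end: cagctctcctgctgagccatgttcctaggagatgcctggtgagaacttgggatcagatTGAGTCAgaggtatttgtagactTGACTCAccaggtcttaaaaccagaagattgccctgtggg
RUNX2 intron 5: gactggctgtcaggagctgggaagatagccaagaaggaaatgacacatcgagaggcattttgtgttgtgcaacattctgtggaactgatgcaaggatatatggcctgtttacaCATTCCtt
RUNX1 intron 6: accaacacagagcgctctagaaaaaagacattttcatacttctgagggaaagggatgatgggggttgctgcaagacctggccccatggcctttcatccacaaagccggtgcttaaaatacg
RUNX3 upstream flank: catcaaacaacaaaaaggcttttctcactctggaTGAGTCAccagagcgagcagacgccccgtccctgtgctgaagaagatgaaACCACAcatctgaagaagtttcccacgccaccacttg
CBFB intron 3: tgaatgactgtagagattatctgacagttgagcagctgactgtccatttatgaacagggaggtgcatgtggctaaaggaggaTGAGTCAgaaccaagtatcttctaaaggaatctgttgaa

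The RUNX2 region past the MANE end held 2 AP-1 motifs, 1 read on each strand and 23 bp apart, beside its summit. The region in intron 5 held a TEAD motif and no AP-1 motif. The RUNX1 window held none of the 3 motifs, the nearest AP-1 motif lying outside it but within 100 bp of the summit. The CBFB window held 1 AP-1 motif, and the RUNX3 window held an AP-1 motif and a RUNX motif. The RUNX3 window was centred on the summit of replicate 1, and the summit of replicate 2 lay 478 bp away, outside it.

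Over the 11 distal regions, 7 held the AP-1 motif within 100 bp of the summit, 4 the TEAD motif and 2 the RUNX motif. The same windows over all 13923 distal regions held them in 34.0%, 26.6% and 23.2% of cases, and windows 1 kb to the side in 3.401%, 11.2% and 15.2%. With 11 regions these shares are a description, and in replicate 2 alone 10 of 26 distal regions held the AP-1 motif. The AP-1 motif was met in every locus, at both distal regions of RUNX1, at 3 of the 6 of RUNX2, at 1 of the 2 of RUNX3 and at the only one of CBFB. The 4 regions with the TEAD motif were all at RUNX2, and the RUNX motif was met at chr6:45697709-45697919 of the RUNX2 locus and upstream of RUNX3. Each window was centred on the summit of the higher peak of its region. The AP-1 and RUNX motifs of RUNX3 lay near the summit of replicate 1, and that of replicate 2 was 478 bp away. In 11 of the 21 shared regions the summits of the replicates lay within 50 bp of each other.

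**Figure D3:**
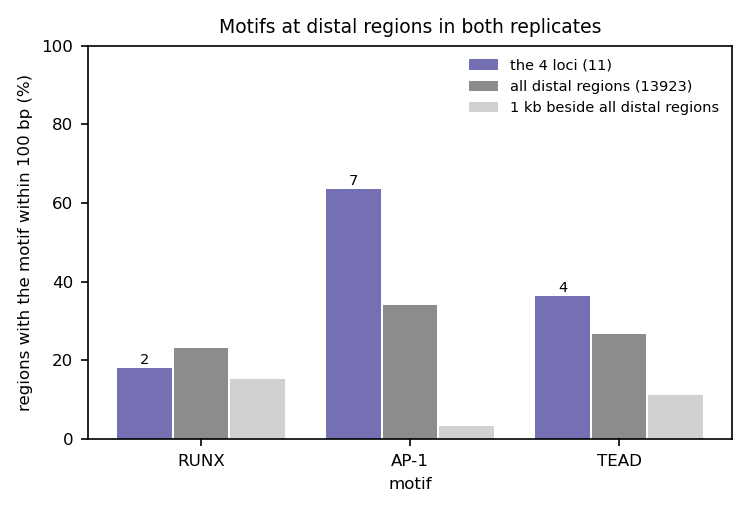
Percent of distal regions found in both replicates that hold each motif within 100 bp of the summit, for the 11 regions of the 4 loci (purple, number of regions above the bar), all 13923 distal regions (dark grey) and windows 1 kb beside them (light grey). The purple bar is highest for AP-1, at 7 of 11.

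The RUNX1 locus was long and sparsely open. Its GENCODE record covers 1217 kb because a few incompletely described or noncoding transcripts start far upstream of P1, and 5 of its 17 regions were found in both replicates. That is 0.353 shared regions per 100 kb, above 11.1% of protein-coding loci, and 0.141 distal ones, above 34.9%. The 955 kb upstream of P1 held 1 shared region, while the 101 kb from P2 to the end of the gene held 2, of which 1 was that of P2 itself.

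The RUNX1 region with the highest mean of the 5 shared ones was at chr21:34836179-34836597, in intron 6 of the MANE transcript, with fold enrichments of 4.16 in replicate 1 and 8.84 in replicate 2. The mean of 6.50 ± 3.31 (SD, n = 2) has the widest relative spread of the named regions, and in replicate 1 alone RUNX1 P2, SETD4 and the region upstream of P1 were higher. Around it replicate 2 alone called 5 further intronic regions, with fold enrichments from 4.08 to 5.44. The shared region upstream of P1, at chr21:35256665-35256909, lay 208 kb from P1 and had fold enrichments of 4.33 and 5.66.

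RUNX3 had the emptiest gene of the family. Its locus of 266 kb held 2 regions, both found in both replicates and both in the flanks. That is 0.753 shared regions per 100 kb, above 23.9% of protein-coding loci. Both were distal, and the density of distal regions was above 66.7% of loci. Upstream, chr1:25022387-25023160 had fold enrichments of 5.89 in each replicate, from 2 separate peaks in replicate 1 and 1 wide peak in replicate 2 whose summits were 478 bp apart. Downstream, chr1:24848079-24848329 had fold enrichments of 5.37 and 5.66, with summits 34 bp apart. No protein-coding gene overlaps either summit.

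The CBFB locus differed in that its regions belonged mostly to its neighbours. Of 15 regions, 6 were found in both replicates, and 4 of those 6 were at promoters of other genes. The only distal shared region was in intron 3 of CBFB, at chr16:67055778-67056044, 26.7 kb past the TSS, with fold enrichments of 5.54 and 6.12. The locus had 2.21 shared regions per 100 kb, above 70.8% of loci, but 0.368 distal ones, above 41.0%.

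The strongest region of the RUNX2 locus and that of the CBFB locus lay at promoters of neighbouring genes. The promoter of SUPT3H, a subunit of the SAGA coactivator complex, which lies inside RUNX2 between P1 and P2 and is read in the opposite direction, had fold enrichments of 16.5 and 18.7 in a peak of 1104 bp and 1057 bp. Its mean of 17.6 ± 1.56 was above 97.0% of all regions found in both replicates. In the CBFB locus the promoters of NOL3, an inhibitor of apoptosis (7.45 and 8.46), MATCAP1, a tubulin-processing peptidase (6.24 and 7.66), B3GNT9 (4.68 and 5.89) and CIAO2B (4.16 and 4.30) were open in both replicates. CES2, which forms a divergent pair with CIAO2B, also counted as open in both. In replicate 1 this was through the edge of the CIAO2B peak, and the peak over the CES2 start was called in replicate 2 alone (4.76). PHAF1, TRADD, FBXL8 and E2F4 had a peak in replicate 2 only, and 6 further neighbours had none. In the RUNX1 locus SETD4 (4.85 and 5.89) was open in both replicates and CBR1 in replicate 2 only (7.25). RUNX3 had no protein-coding neighbour with its start inside the locus.

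**Figure D4:**
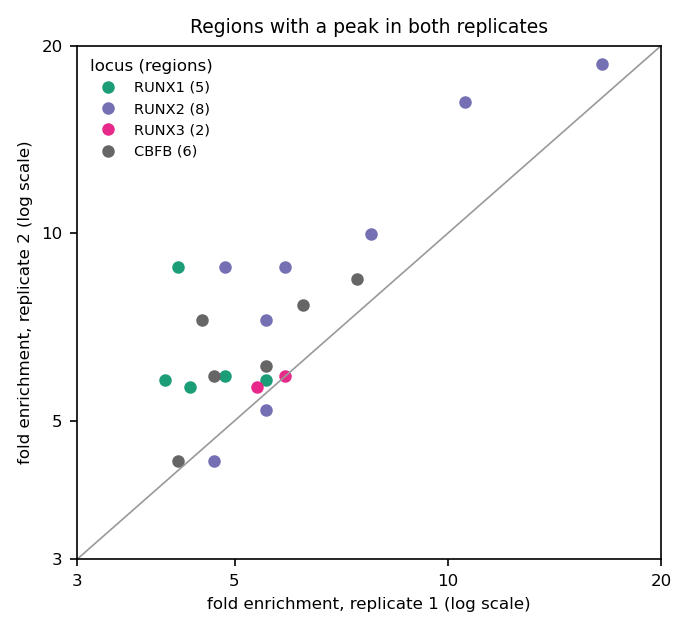
Fold enrichment in replicate 2 against replicate 1, both on log scales, for the 21 regions of the 4 loci with a peak of each replicate, coloured by locus; the grey line marks equality. Of the 21 points 18 lie above the line, and the RUNX1 region at 4.16 and 8.84 is farthest from it in ratio.

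The level of fold enrichment in the wider surroundings was also read. The median over shared regions within 10 Mb of each gene was 6.50 at RUNX1, 6.999 at RUNX2, 6.72 at RUNX3 and 6.81 at CBFB, against 7.22 over all chromosomes. Copy number of these regions in BEAS-2B was not tested.

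Genes that work with RUNX proteins were mostly open. Of 21 coregulators and modifiers, 18 (85.7%) had a promoter peak in both replicates against 52.2% of all promoters. None of the 21 was in the CpG-poorest group and 11 were in the richest, in which 74.3% of promoters were open. The open ones included the TLE corepressors TLE1 (14.8 and 13.7) and TLE4 (13.4 and 12.3), the acetyltransferases EP300 (5.54 and 6.57) and KAT6B (13.4 and 13.7), the deacetylase HDAC3 (13.1 and 10.8) and the Hippo pathway coactivators YAP1 (8.80 and 8.68) and WWTR1 (7.60 and 8.67). TLE2, the acetyltransferase CREBBP and the corepressor CBFA2T3 had no peak in either replicate. The median of the 18 means was 8.44, near the 8.92 of all open promoters. Of the 18, CDK6 was lowest with a mean of 4.71.

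Genes known as RUNX targets in blood and bone were mostly closed. None of the 10 blood targets, among them CSF1R, SPI1, MPO and CSF2, had a peak at its main promoter in either replicate, against 52.2% of all promoters with one in both. Of these 10 promoters, 8 were in the CpG-poorest of the 4 groups described above, in which 5.85% were open. CSF1R, the receptor of macrophage colony-stimulating factor, had a peak of each replicate (8.49 and 8.84) at another annotated start 26.8 kb away. Of 8 RUNX2 targets of bone and cartilage, COL1A1 (6.41 and 7.85), which encodes a chain of type I collagen, was open in both replicates, BGLAP (osteocalcin) had a peak in replicate 2 only (4.98), and 6 had none: SP7, SPP1, IBSP, COL10A1, MMP13 and ALPL. Of these 8 promoters, 6 were in the CpG-poorest group.

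The labels call BEAS-2B an epithelial line, but few of the epithelial marker promoters carried a peak. Of 8 epithelial and airway basal markers, KRT18 alone had a peak in both replicates (5.02 and 6.34), KRT8 had one in replicate 2 (5.89), and CDH1, EPCAM, KRT5, KRT14, KRT19 and TP63 had none, with 1 of the 8 in the CpG-poorest group. All 6 mesenchymal markers were open in both replicates, with means from 4.97 at ZEB1 to 9.46 at FN1, and none of them was in the CpG-poorest group. The share of all promoters open in both replicates was 52.2%. None of the 5 blood cell markers analysed (PTPRC, CD3E, SPI1, GATA1, CD34) was open at its main promoter, 4 of them being in the CpG-poorest group, and of the 3 bone markers none was open in both replicates, BGLAP being the one called in replicate 2.

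**Figure D5:**
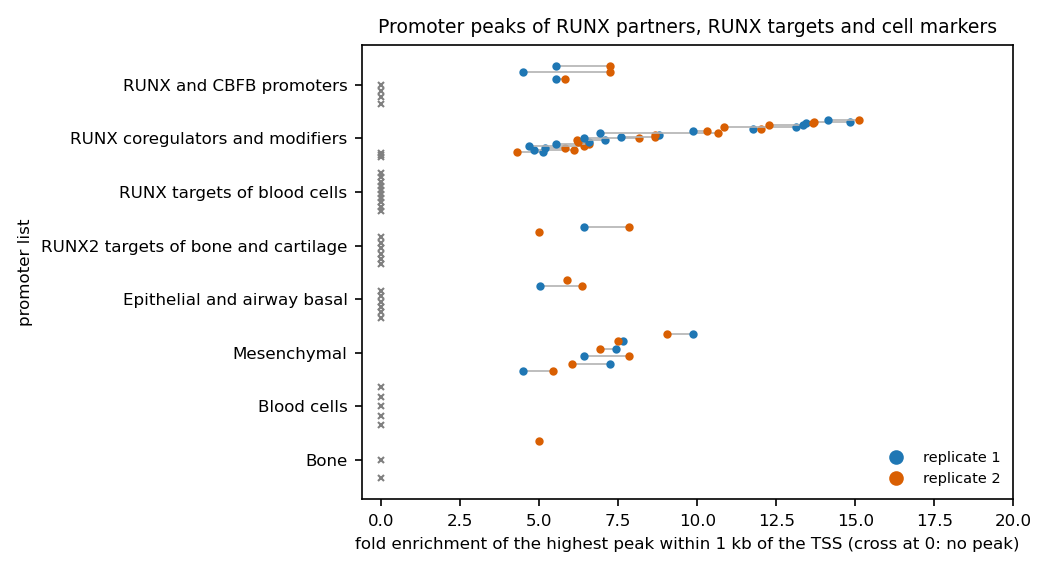
Fold enrichment of the highest peak within 1 kb of the TSS in replicate 1 (blue) and replicate 2 (orange) for each promoter of the family and of the RUNX partner, target and cell marker lists; a line joins the replicates of a gene and a grey cross at 0 marks a promoter with no peak. The family's 3 open promoters lie between 4.50 and 7.25, in the lower part of the range of the coregulators.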

How the data were processed

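Per the study's methods and the submitters' processing notes, reads were mapped to hg38 with Bowtie2 2.4.4, duplicates were removed, SAMtools 1.13 was used for scaling, and the authors called peaks per replicate with MACS2 2.2.7.1 keeping all remaining reads. Whether reads were shifted to the Tn5 cut site is not given in the sources used here. The deposited peak lists give the fold enrichment (a ratio), −log10 p and −log10 q values and a display score equal to 10 times −log10 q, cut to a whole number. Fold enrichment thus depends on the caller's background, and sites below its threshold have no value.

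Peaks were joined where they overlapped by at least 1 bp, and a region took the summit of its highest peak and belonged to a locus where that summit lay within 100 kb of the GENCODE 44 gene record. RUNX transcripts were assigned to P1 or P2 by the start of their coding sequence, and each promoter took its MANE or canonical start, else the start shared by most transcripts. Pileups were solved from fold and −log10 p, which was tested on simulated data. Named items were the 4 genes and their promoters, the 3 strongest shared regions of each locus outside other genes' promoters, the regions nearest P1 and P2, the neighbouring genes and the listed genes. From the marker lists 1 gene is not reported here. The members, lists and rules were chosen with earlier results of these data known, and the AACCACA pair after its sequences were seen. With 1 condition no test between groups was made, and mean ± SD is over n = 2. The alternatives tried changed the q-value minimum, list length, overlap, flank, window, start site, motif spelling and replicate. Promoter sequences for the motif share came from RefSeq (hg38). Python 3 with numpy, pandas, scipy, pysam and biopython was used.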

Additional observations from a re-analysis of the deposited data

How the results depend on the processing

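Of 167 alternative values, 136 stayed close to the value reported. Close means within 1.5 times for a count of regions, motifs or listed promoters, within 1 SD of the replicates for a fold enrichment or percentile, the same call for a promoter, and within the 95% Wilson interval for the shares of genes with a distal and a proximal promoter; the cause of the others was not tested. No paired analysis was possible because both samples are of 1 condition. The call at RUNX1 P1 rose to 50% of replicates within 3 kb, and the calls of the other 6 promoters held under every alternative tried. Leaving out a replicate could not change a promoter call, because both replicates gave the same call at every promoter. It could not move a fold enrichment either, because with n = 2 each value lies within 1 SD of the mean. At RUNX1 the shared regions fell from 5 to 3 over the span of the transcripts that start at P1 and P2. RUNX3 kept 1 region with 50% reciprocal overlap and 0 with 50 kb flanks, and CBFB 2 with 50 kb flanks; the density percentiles with 50 kb flanks were 59.0 at RUNX2, 0.0 at RUNX3 and 41.9 at CBFB. With 1 replicate left out, the regions ranged from 5 to 17 at RUNX1 and from 7 to 15 at CBFB (the larger values are replicate 2 alone), and the percentiles from 10.1 to 27.4 at RUNX1, 47.2 to 49.6 at RUNX2 and 73.5 to 92.3 at CBFB.

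The RUNX motif was met in 4 of the 11 distal regions over whole regions and in 1 with the spelling TGTGGTT, and the TEAD motif in 1 within 50 bp, in 2 with GGAATGT and, with 1 replicate left out, in 3 of 12 distal regions (replicate 1 alone) to 7 of 26 (replicate 2 alone). The AP-1 motif was met in 5 of the 11 within 50 bp, in 7 of 12 in replicate 1 alone and in 10 of 26 in replicate 2 alone. Closeness was judged on these counts, not on their share of the regions. With a 500 bp window bone targets and epithelial markers open in both replicates each fell from 1 to 0 (COL1A1 and KRT18). With any annotated start, blood targets rose to 1 (CSF1R), blood markers to 1 (CD34) and epithelial markers to 2 (KRT8). Leaving out a replicate gave 1 to 2 bone targets, 1 to 2 epithelial markers and 0 to 1 bone markers, the higher values being those of replicate 2 alone. Genes open at both the upstream and downstream start made up 7.34% with 500 bp and 10.9% with 3 kb, and those open at neither 42.2% and 36.2%. The number of peaks, 2 replicates and the calling threshold limit what a closed promoter means: reads below the threshold have no value here.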
